A study of Mus musculus with 16 samples.

Results

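The Hox genes of the mouse lie in the Hoxa, Hoxb, Hoxc and Hoxd clusters. Occupancy of these 4 clusters by Oct4, Oct4 mutants, a mutant of Oct6 and Sox2 was read from ChIP-seq peak summits. No library of unmutated Oct6 was included. A summit is the base at which a peak of sequenced fragments is highest. The members were all summits inside the bodies of 38 listed Hox genes or within 10 kb to either side, in mm10 coordinates with GENCODE M21 genes, and each summit was counted once. Of 227116 summits in 13 libraries, 95 were members. Summits of any library that lay within 100 bp of the next were merged into sites, which gave 83 Hox sites of 172804 sites in all. The annotation holds 39 Hox genes, and adding the gene that is not on the list added 0 summits.

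All libraries came from OG2 MEFs, fibroblasts of mouse embryos with an Oct4-GFP reporter, which received retroviral Sox2 and Klf4 (SK) with 1 POU factor before culture in the chemically defined medium iCD1. Oct4-SK cells were taken for Oct4 ChIP on days 1, 5 and 7 of iCD1 culture, and cells with Oct4defSox2-SK for ChIP of the mutant on days 1 and 5. Cells with S151M-SK gave the Oct4 S151M library on day 1, and cells with M151S-SK the Oct6 M151S library, which the title places on day 1 and another label on day 2. Sox2 ChIP was done on days 1 and 5 for each of the cocktails Oct4-SK, Oct6-SK and Oct4defSox2-SK. Each of these groups was 1 library, so intervals below cover counting error only and no p-value was computed. Oct4defSox2 carries mutations at the surface that contacts Sox2 on DNA. Oct4 S151M and Oct6 M151S exchange the residue that sets how readily the POU factor forms homodimers on DNA. The factors were expressed from retroviruses in unsorted cultures, so a summit list describes a mixed population.

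Hox genes encode homeodomain transcription factors that give cells their position along the body axis, and their order on the chromosome follows the order in which they are used from head to tail. Fibroblasts keep a Hox pattern from their site of origin, while pluripotent cells hold the clusters largely silent under Polycomb proteins. POU factors bind the octamer alone, the composite SoxOct element together with Sox2, and the palindromic MORE element (with a variant, MORE+1, that has an extra central base) as homodimers.

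The sites that carry the results are printed here, with 60 bases to each side of the site's centre, on the plus strand of mm10. Matches to a POU motif are in capitals, and a site with no capitals held none. The strongest Oct4 S151M sites were shown because they ranked highest among the Hox summits of that library and differ in whether a MORE element is present.
Hoxc5 intron, chr15:102989008-102989128: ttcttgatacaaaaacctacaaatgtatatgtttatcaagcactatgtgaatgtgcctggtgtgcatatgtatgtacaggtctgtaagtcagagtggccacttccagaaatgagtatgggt
Hoxc4 first S151M site, chr15:103020817-103020937: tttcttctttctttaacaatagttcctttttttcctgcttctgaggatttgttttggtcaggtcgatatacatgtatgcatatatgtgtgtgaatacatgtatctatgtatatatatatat
Haglr exon beside Hoxd3 (MORE+1), chr2:74749197-74749317: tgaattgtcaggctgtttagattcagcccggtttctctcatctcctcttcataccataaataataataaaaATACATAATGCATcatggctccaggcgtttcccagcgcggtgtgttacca
downstream of Hoxb1 (MORE+1), chr11:96374215-96374335: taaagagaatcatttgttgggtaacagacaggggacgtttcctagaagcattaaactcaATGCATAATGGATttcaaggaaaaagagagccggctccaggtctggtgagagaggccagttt
The next set was shown because several libraries had a summit there. For the Hoxa2 site, which lies in an untranslated region, only the match and 5 bases to each side are given.
Hoxa2 UTR (SoxOct on the minus strand), chr6:52162537-52162561: caaaaATACGCATGACAATGcattc
Hoxa3 intron, chr6:52177005-52177125: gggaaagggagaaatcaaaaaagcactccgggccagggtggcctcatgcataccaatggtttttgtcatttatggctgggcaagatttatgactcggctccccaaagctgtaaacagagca
Hoxc4 intron, Sox2 and Oct4defSox2, chr15:103030238-103030358: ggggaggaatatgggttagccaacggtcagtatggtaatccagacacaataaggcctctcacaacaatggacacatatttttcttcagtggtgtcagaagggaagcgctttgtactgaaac
Hoxd3 intron, Sox2, chr2:74733458-74733578: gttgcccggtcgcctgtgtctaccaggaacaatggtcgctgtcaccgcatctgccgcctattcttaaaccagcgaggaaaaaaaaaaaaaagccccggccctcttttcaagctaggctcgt
The last is the octamer at the Hoxa10 site that ranked highest among the Hox summits of Oct4defSox2, again with only 5 bases to each side.
Hoxa10 UTR (octamer), chr6:52240721-52240738: caaatATGCAAATtggcc

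Most Hox summits came from the libraries with the longest lists. Oct4 S151M had 42 Hox summits of its 101151 summits on chromosomes 1 to 19, X and Y, Oct6 M151S had 16 of 22791, Sox2 in Oct4defSox2-SK at day 5 had 14 of 21551, and Oct4defSox2 at day 1 had 12 of 31060. These libraries had the 4 longest lists. Oct4 S151M alone gave 44.2% of all Hox summits, and a similar share of all summits on these chromosomes (101151 of 226962). Unmutated Oct4 had 0 Hox summits of 8199 at day 1, 3 of 4846 at day 5 and 0 of 3614 at day 7. Oct4defSox2 at day 5 had 0 of 1034. Sox2 had 4 of 15219 at day 1 and 1 of 5793 at day 5 in Oct4-SK cells, 0 of 3242 and 2 of 2669 in Oct6-SK cells, and 1 of 5793 at day 1 in Oct4defSox2-SK cells. The 9 shorter lists thus held between 0 and 4 Hox summits each.

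As a share of the library, Hox summits were 0.0415% for Oct4 S151M (Wilson 95% interval 0.0307 to 0.0561%), 0.0386% for Oct4defSox2 at day 1 (0.0221 to 0.0675%), 0.0702% for Oct6 M151S (0.0432 to 0.114%) and 0.0650% for Sox2 in Oct4defSox2-SK at day 5 (0.0387 to 0.109%). The Hox windows cover 511.0 kb, or 0.0193% of the genome, and all of these intervals lay above that figure. The summit density in the windows, set against the rest of the genome, was 2.15 times for Oct4 S151M (exact 95% interval 1.55 to 2.91), 2.00 times for Oct4defSox2 at day 1 (1.03 to 3.50), 3.64 times for Oct6 M151S (2.08 to 5.91) and 3.37 times for Sox2 in Oct4defSox2-SK at day 5 (1.84 to 5.65). For the other 9 libraries the interval of this ratio included 1.

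**Figure D1:**
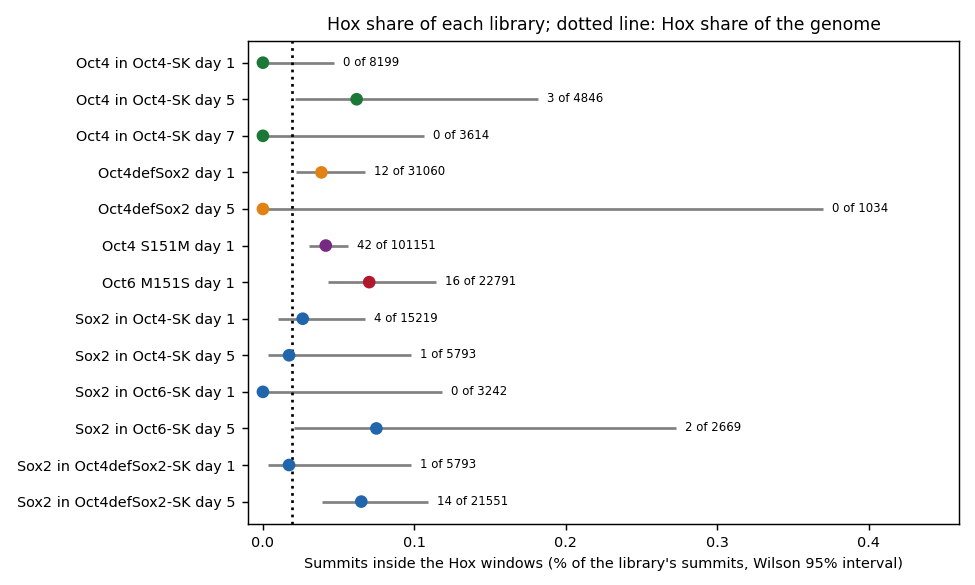
Each row is a library, the point is the percent of its summits inside the Hox windows with a Wilson 95% interval, and the dotted line is the 0.0193% of the genome that the windows cover. The intervals of Oct4defSox2 day 1, Oct4 S151M, Oct6 M151S and Sox2 in Oct4defSox2-SK day 5 lie to the right of the line, as do those of Oct4 day 5 (3 summits) and Sox2 in Oct6-SK day 5 (2 summits), with lower ends at 0.0211% and 0.0206%, and 4 libraries are at 0.

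The count of 0 for Oct4 at day 1 was not a detectable absence. At the density of the rest of its genome, that library would have held 1.58 Hox summits, and the Wilson 95% interval of its share reached up to 0.0468%. The 3 Oct4 days together had 3 Hox summits, 0.933 times the density elsewhere (0.192 to 2.73). The difference in Hox share was −0.0619 percentage points between Oct4 days 1 and 5 (Newcombe 95% interval −0.182 to 0.000237) and 0.0386 points between Oct4defSox2 and Oct4 at day 1 (−0.0110 to 0.0675). For Oct4 S151M against Oct4 at day 1 it was 0.0415 points (−0.00654 to 0.0561). All of these intervals included 0.

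The lists differ in length, so the strongest 8199 summits of Oct4 S151M and of Oct4defSox2 were also counted. They held 3 and 1 Hox summits, beside the 0 of Oct4 at the same number. The Hox share of Oct4 S151M differed from that of Oct6 M151S by −0.0287 points (−0.0738 to 0.00200), again with 0 in the interval. The Oct6 M151S list reached down to a score of 2.3, where the other 12 began at 4.00 or above. Of its 16 Hox summits, 8 had a score under 4. The median score was 3.96 for its Hox summits and 3.74 for all its summits, so scores under 4 were not particular to the Hox summits. This score is −log10 of the p-value that MACS2 gave the summit.

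Sox2 gave the same picture, with few Hox summits in each library except that of Oct4defSox2-SK at day 5, which was also the longest Sox2 list. Between days 1 and 5 the difference in Hox share was 0.00902 points in Oct4-SK cells (−0.0730 to 0.0527), −0.0749 points in Oct6-SK cells (−0.273 to 0.0553) and −0.0477 points in Oct4defSox2-SK cells (−0.0940 to 0.0369). Of 13 comparisons of Hox share between libraries, 0 had an interval that excluded 0. Without Sox2 in Oct4defSox2-SK at day 5, the remaining 5 Sox2 libraries had 8 Hox summits, 1.27 times the density elsewhere (0.547 to 2.50). This interval includes 1 but overlaps that of the library left out (3.37, 1.84 to 5.65). Whether the excess in Sox2 is confined to that library could thus not be told.

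Pooled over 13 libraries, the Hox windows held 186 summits per Mb (exact Poisson 95% interval 150 to 227), 2.17 times the density of the rest of the genome (1.75 to 2.65). Without Oct4 S151M the ratio was 2.18 (1.64 to 2.86). Counted as merged sites, so that a site bound in several libraries enters once, it was 2.49 (1.98 to 3.09). The 500 kb to either side of the windows held 115 summits per Mb (105 to 126), and the Hox windows exceeded them 1.61 times (1.28 to 2.02). Within a library, this ratio was 1.65 for Oct4 S151M (1.15 to 2.31), 2.35 for Oct6 M151S (1.26 to 4.17) and 2.58 for Sox2 in Oct4defSox2-SK at day 5 (1.31 to 4.81). Its interval included 1 for Oct4defSox2 at day 1 (1.54, 0.753 to 2.88) and for Sox2 in Oct4-SK at day 1 (0.774, 0.201 to 2.14). It also included 1 for each other library that had a Hox summit.

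The windows of the Dlx and Irx genes, other homeobox genes that lie in clusters, held 88.8 summits per Mb (58.0 to 130). The Hox windows exceeded them 2.09 times (1.34 to 3.37). Within a library, this ratio was 2.67 for Oct4 S151M (1.28 to 6.25), and for Oct4defSox2 at day 1 (2.29, 0.618 to 12.7), Oct6 M151S (1.53, 0.568 to 4.77) and Sox2 in Oct4defSox2-SK at day 5 (2.01, 0.630 to 8.37) its interval included 1. The same was true of each other library with a summit in both kinds of window.

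**Figure D2:**
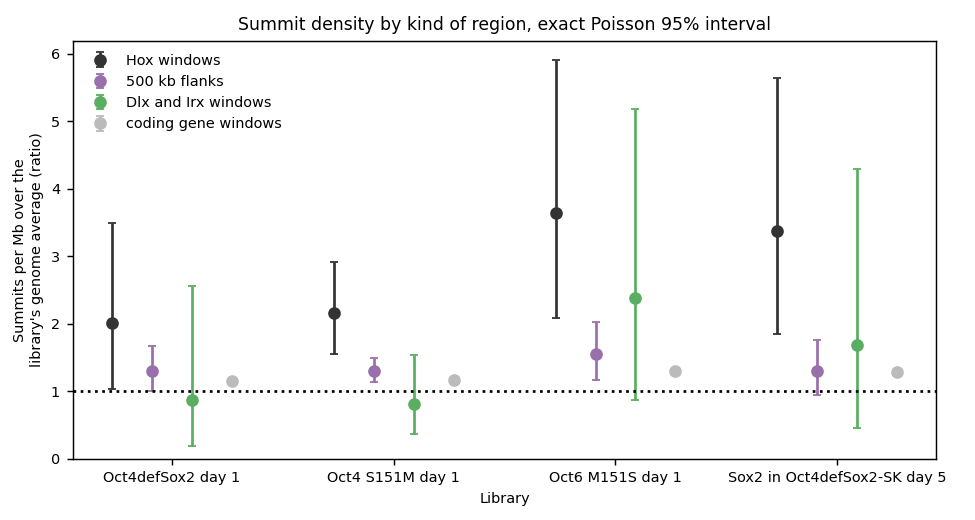
The vertical axis gives summits per Mb in each kind of region divided by the genome average of the same library, with exact Poisson 95% intervals, for the 4 libraries with the most Hox summits. Hox windows (dark) lie highest in each library, and their intervals are wide because they rest on 12 to 42 summits.

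The windows are rich in transcription starts and in G and C. Within 1 kb of an annotated start lay 31.8% of the Hox windows, against 4.37% of the genome, and the windows were 49.0% GC against 41.7%, with 24.1 CpG per kb against 8.26. Of the Hox sites, 25 of 83 (30.1%, 21.3 to 40.7%) were within 1 kb of a start, against 6.59% of the other 172721 sites, a difference of 23.5 points (14.7 to 34.1), but the share of Hox sites near a start was close to the share of Hox ground near a start. Away from starts the Hox windows held 178 summits per Mb, 2.12 times the density of ground away from starts elsewhere (1.63 to 2.72). Near starts they held 203 per Mb, 1.61 times that elsewhere (1.11 to 2.26). Within a library, the interval of the ratio near starts included 1 for Oct4defSox2 at day 1 (1.80, 0.583 to 4.20), Oct4 S151M (1.65, 0.789 to 3.03), Oct6 M151S (1.53, 0.497 to 3.58) and Sox2 in Oct4defSox2-SK at day 5 (1.66, 0.609 to 3.62). Away from starts the ratio was 2.40 for Oct4 S151M (1.64 to 3.39), 3.91 for Oct6 M151S (1.95 to 6.99) and 3.06 for Sox2 in Oct4defSox2-SK at day 5 (1.32 to 6.04), while the interval included 1 for Oct4defSox2 at day 1 (1.75, 0.703 to 3.61) and for Sox2 in Oct4-SK at day 1 (0.508, 0.0129 to 2.83). Whether GC content has a part in it was not tested.

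Over the 13 libraries together, Hoxa was the densest cluster. It had 38 summits in 118.5 kb, a density 3.74 times that outside the Hox windows (2.65 to 5.14), and Hoxc had 27 in 135.8 kb, 2.32 times (1.53 to 3.38). Hoxb had 16 summits (1.33 times, 0.763 to 2.17) and Hoxd had 14 (1.40 times, 0.764 to 2.35), and both intervals included 1. Set against the other 3 clusters together, Hoxa was 2.21 times as dense (1.43 to 3.39), 2.17 times without Oct4 S151M (1.19 to 3.89) and 1.88 times in merged sites (1.16 to 2.99). In the 6 Sox2 libraries alone Hoxc came first, with 8 summits (2.88 times, 1.24 to 5.67) beside 6 in Hoxa (2.47 times, 0.907 to 5.38), and these intervals overlap.

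The split by cluster was sharpest for Oct4defSox2 at day 1, which had 8 summits in Hoxa, 4 in Hoxc and 0 in Hoxb and Hoxd. Its density in Hoxa was 6.63 times that of the other clusters (1.78 to 30.1). Oct4 S151M had 17 in Hoxa, 8 in Hoxb, 12 in Hoxc and 5 in Hoxd, with a Hoxa ratio of 2.25 (1.14 to 4.34). Oct6 M151S had 5, 3, 3 and 5, and Sox2 in Oct4defSox2-SK at day 5 had 4, 2, 6 and 2, and in these libraries the interval of the Hoxa ratio included 1. The 3 summits of Oct4 at day 5 were 2 in Hoxa and 1 in Hoxd.

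**Figure D3:**
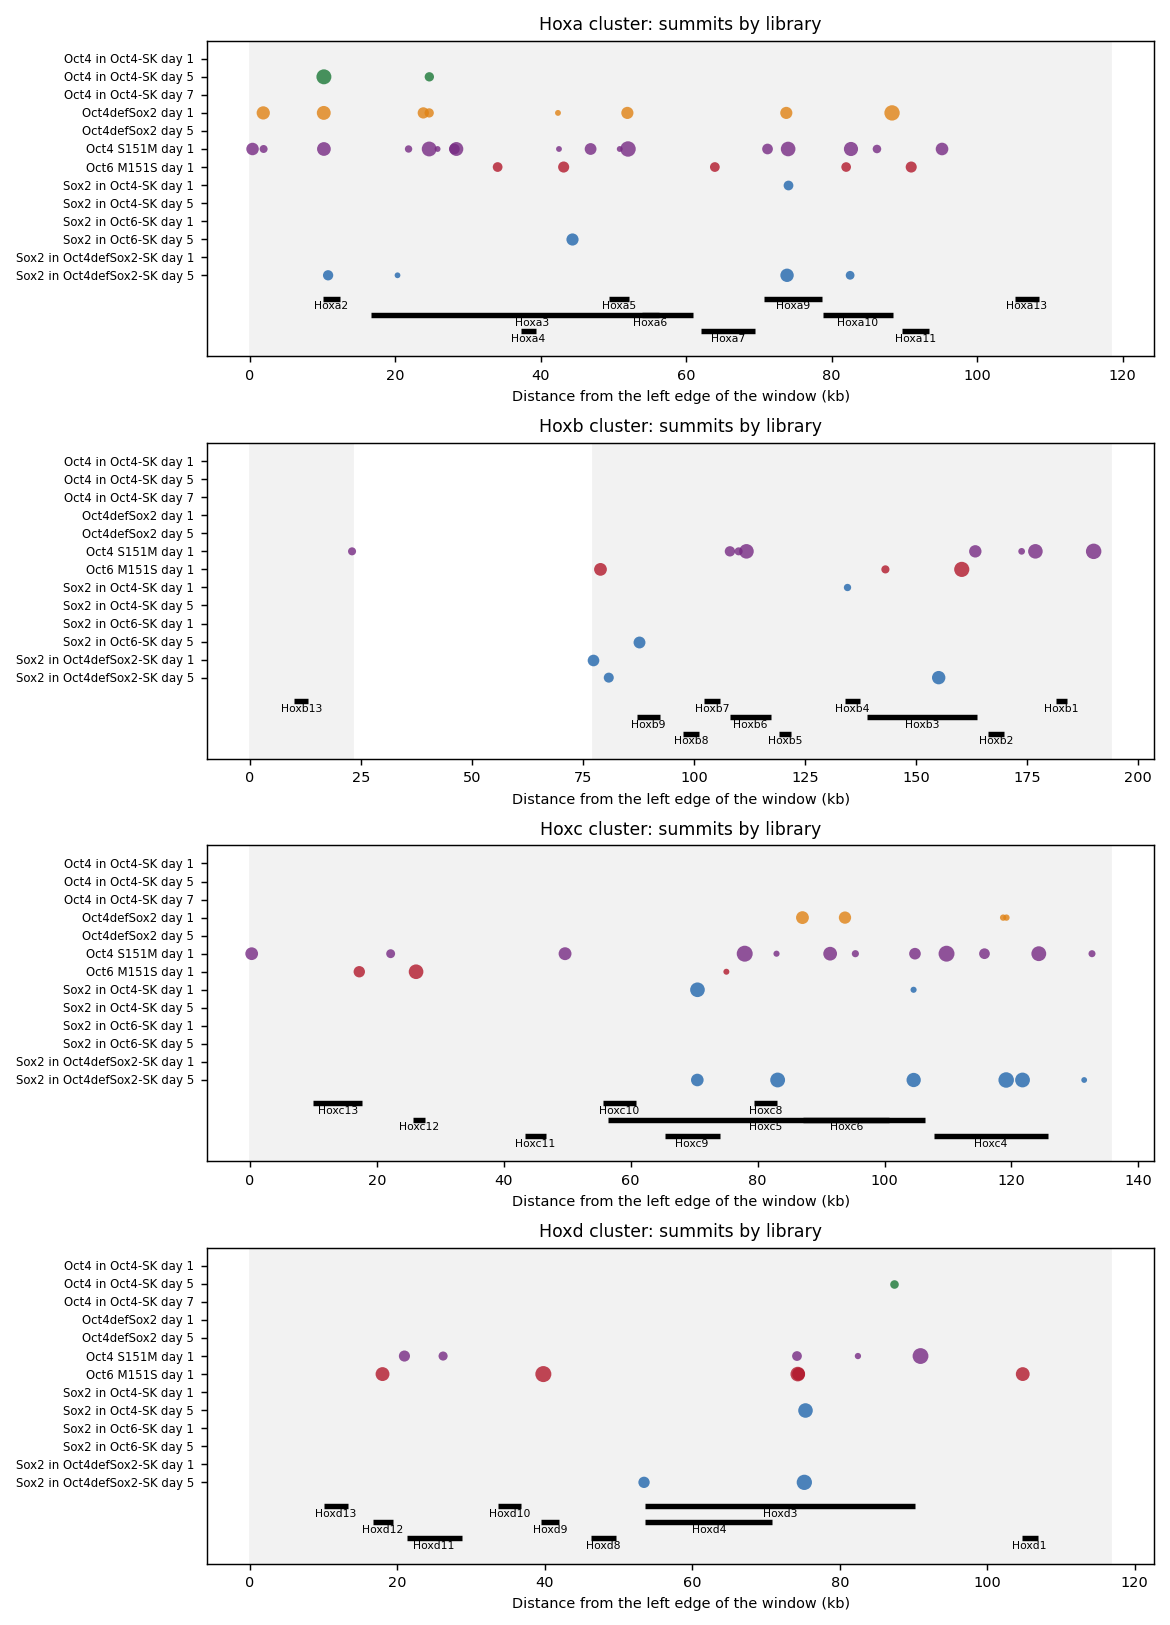
Summits are drawn as points by library (rows) along each cluster, with distance in kb from the left edge of the window, point size growing with the summit's rank in its library, grey for the windows counted and black bars for gene bodies. Oct4defSox2 day 1 has points in Hoxa and Hoxc only, and the Oct4 day 5 points in Hoxa line up with points of Oct4defSox2 day 1 and Oct4 S151M.

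Of the 38 genes, 37 had a summit of some library in the body or within 10 kb, beside 81.7% of 21938 protein-coding genes. Hoxa13, a gene of the distal limb and genital tubercle, was the only listed gene with none. By library, Oct4 S151M reached 32 genes (67.2% of all coding genes had a summit), Oct6 M151S 26 (42.8%), Sox2 in Oct4defSox2-SK at day 5 17 (38.9%) and Oct4defSox2 at day 1 13 (37%). Sox2 in Oct4-SK reached 11 at day 1 (25.2%) and 2 at day 5 (14.9%), Sox2 in Oct6-SK 0 at day 1 (5.89%) and 6 at day 5 (7.07%), and Sox2 in Oct4defSox2-SK at day 1 reached 1 (10.1%). Unmutated Oct4 reached 0 genes at day 1 (15.6%), 3 at day 5 (12.6%) and 0 at day 7 (9.39%), and Oct4defSox2 at day 5 reached 0 (3.14%).

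In percent of the 38, Oct4 S151M (84.2%, beside 67.2% of coding genes) and Oct6 M151S (68.4%, beside 42.8%) were above the share of coding genes, as was Sox2 in Oct6-SK at day 5 (15.8%, beside 7.07%), in Oct4defSox2-SK at day 5 (44.7%, beside 38.9%) and in Oct4-SK at day 1 (28.9%, beside 25.2%). Oct4defSox2 at day 1 was slightly below it (34.2%, beside 37%). Oct4 at day 5 (7.89%, beside 12.6%), Sox2 in Oct4-SK at day 5 (5.26%, beside 14.9%) and Sox2 in Oct4defSox2-SK at day 1 (2.63%, beside 10.1%) were lower, and 0 Hox genes had a summit of Oct4 at day 1 (beside 15.6%) or day 7 (beside 9.39%), of Oct4defSox2 at day 5 (beside 3.14%) or of Sox2 in Oct6-SK at day 1 (beside 5.89%). The windows of neighbouring Hox genes overlap, so a single summit can count for several genes, and a median Hox gene spans 3496.5 bp against 17425 bp for coding genes. Within 1 kb of the gene's own start, 12 of 38 genes had a summit of some library, beside 23.8% of coding genes.

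**Figure D4:**
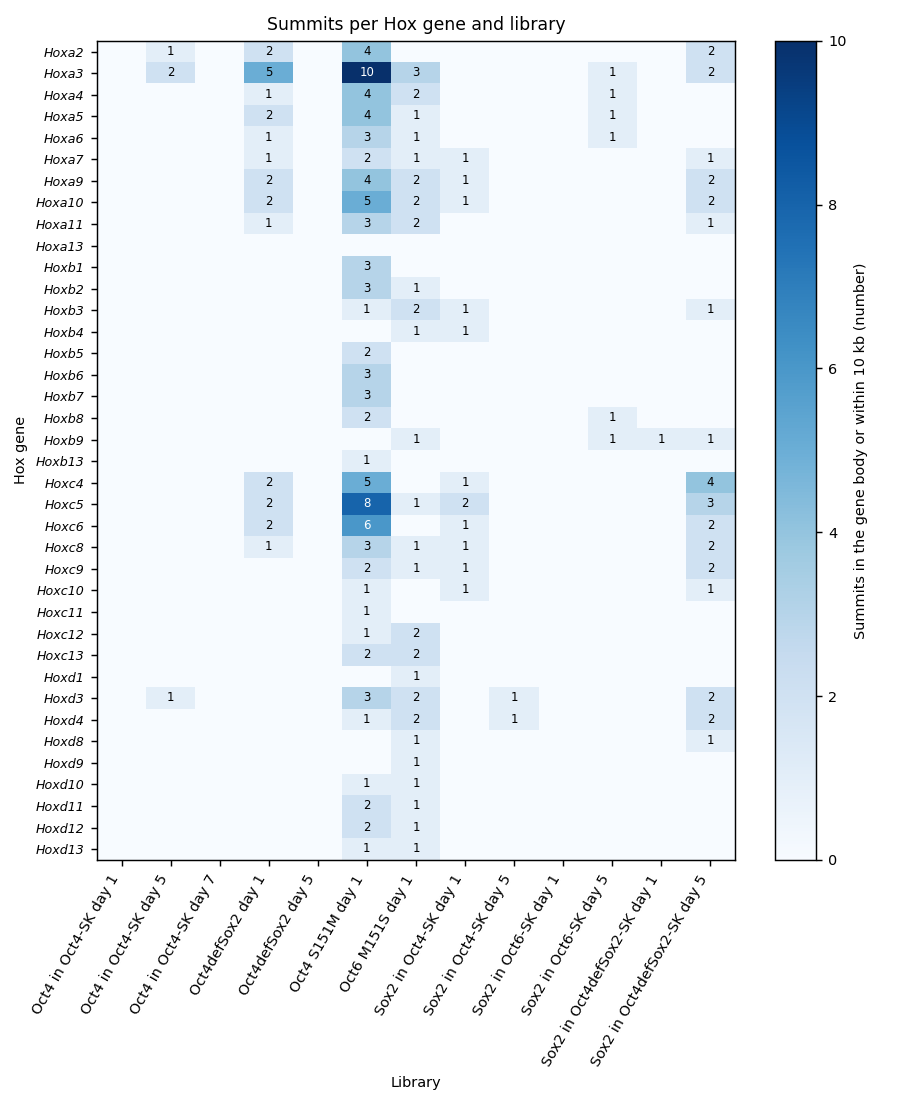
Each cell gives the number of summits of a library (columns) in the body of a Hox gene (rows) or within 10 kb, with empty cells at 0. Hoxa3 with 10 and Hoxc5 with 8 Oct4 S151M summits are the fullest cells, and the row of Hoxa13 is empty.

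Hoxa3 and Hoxc5, the genes with the most Oct4 S151M summits, have annotated bodies that run through their neighbours. The body of Hoxa3, which patterns the pharyngeal arches and the organs derived from them, runs from 52169062 to 52213336 on chromosome 6. The body and the 10 kb to either side held 10 summits of Oct4 S151M, 5 of Oct4defSox2 at day 1, 3 of Oct6 M151S and 2 of Oct4 at day 5. Those of Hoxc5 held 8 of Oct4 S151M and 3 of Sox2 in Oct4defSox2-SK at day 5. When each summit was credited to its nearest gene only, the 11 genes of paralog groups 1 to 4 (the anterior genes) took 49 of 95 summits, the 11 genes of groups 5 to 8 took 18 and the 16 genes of groups 9 to 13 took 28. For Oct4 S151M these counts were 21, 10 and 11. A summit inside a body goes to that gene, so genes with long bodies can take more. Hoxa3 took 15 summits and Hoxd3 and Hoxc4 9 each in the first group, and Hoxc5 took 7 in the second. The ground credited to each group was not measured, so these counts alone do not show a preference for a group. By position, 42 of the 83 sites were in introns, 18 in untranslated regions, 13 between genes, 7 in coding exons and 3 in exons of non-coding transcripts. No share of other sites stands beside these counts, so they only describe the Hox sites.

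Only 9 of the 83 Hox sites (10.8%, 5.81 to 19.3%) had summits in 2 or more libraries, against 15.8% of other sites (difference −4.94 points, −9.97 to 3.56), and 3 had summits in 3 libraries. The first of these lay in the 3′ end of Hoxa2, which patterns the second pharyngeal arch and the hindbrain, in sequence annotated as UTR, at chr6:52162565-52162565. It held the summit of Oct4 at day 5 (score 19.7), of Oct4defSox2 at day 1 (16.7) and of Oct4 S151M (33.7), and ranked above 84.0, 70.6 and 68.5% of the summits of the respective library. The SoxOct match printed above, with 2 mismatches to the consensus, lay 16 bp from the centre of this site. It was the only site with a SoxOct or MORE match that had summits in more than 1 library. No Sox2 library had a summit within 100 bp of it, the nearest being that of Oct4defSox2-SK at day 5 in the coding exon of Hoxa2 (score 7.24).

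The second lay in an intron of Hoxa3 at chr6:52177065-52177065 and held the same libraries. Its scores were 6.46 for Oct4 at day 5, 7.86 for Oct4defSox2 at day 1 and 61.4 for Oct4 S151M, which put it above 24.0, 23.6 and 82.4% of the summits of those libraries. It thus ranked low in the first 2 and high in Oct4 S151M, and no POU motif matched there (the closest MORE alignment had 3 mismatches and the closest SoxOct 4). The third, at chr6:52226351-52226351, was in a UTR of Hoxa9, 162 bp from an annotated start. Sox2 had a summit there in Oct4-SK at day 1 (6.22) and in Oct4defSox2-SK at day 5 (11.6), and so did Oct4 S151M (52.2). The summits of Oct4defSox2-SK at day 5 (52226276) and Oct4 S151M (52226426) each lay within 100 bp of the Oct4-SK summit, but not of each other. A summit of Oct4defSox2 at day 1, at 52226175, counted as a separate site. Hoxa9 is a posterior gene best known from blood progenitors, and the merged site held no POU motif either.

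The pairs of libraries that shared Hox sites were few. Of the 3 Hox summits of Oct4 at day 5, 2 lay within 100 bp of an Oct4defSox2 day 1 summit and 2 within 100 bp of an Oct4 S151M summit, where 54.8% and 63.9% of all its summits did. Of the 12 Hox summits of Oct4defSox2 at day 1, 4 were shared with Oct4 S151M (43.5% of all its summits). Oct4 at day 1 had 0 Hox summits, so none could be shared with it. Of the 42 of Oct4 S151M, 4 were shared with Oct4defSox2 at day 1 (13.3%) and 0 with Oct6 M151S (1.60%).

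Among Sox2 libraries, 3 of the 4 Hox summits in Oct4-SK at day 1 were found again in Oct4defSox2-SK at day 5, where 12.7% of all its summits were. These sites were in UTRs of Hoxc9, Hoxc5 and Hoxa9. At the Hoxc9 site the scores were 11.6 in Oct4-SK at day 1 and 10.1 in Oct4defSox2-SK at day 5, and the Hoxc5 site ranked above 2.12% and 75.1% of the same lists. The only Hox summit of Sox2 in Oct4-SK at day 5 lay in an intron of Hoxd3, the partner of Hoxa3 in the Hoxd cluster, with a score of 14.4 (above 78.8% of its library), and Oct4defSox2-SK at day 5 had a summit there of 21.9 (above 88.1%). Scores are not on a common scale between libraries, so these values say only that both lists held the site.

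Motifs were searched on both strands within 100 bp of each site, and the octamer (ATGCAAAT) can lie inside a SoxOct match. MORE or MORE+1, with up to 1 mismatch, was found in 5 of 83 Hox sites (6.02%, 2.60 to 13.3%) and 14.5% of other sites, a difference of −8.51 points (−11.9 to −1.19). All 5 were Oct4 S151M sites, and within that library the shares were 11.9% of 42 Hox summits and 24.4% of the other 101109, a difference of −12.5 points whose interval included 0 (−19.2 to 0.592). With no mismatch allowed, or with windows of 50 kb around the genes, the interval over all sites included 0 as well.

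For the other motifs no difference between sites inside and outside the clusters was detectable with this number of sites. SoxOct with up to 2 mismatches was found in 2 of 83 Hox sites (2.41%) and 2.82% of other sites, and the octamer in 6 of 83 (7.23%) and 5.14%. A single Sox motif (CATTGTT or CTTTGTT) was found in 12 of 83 (14.5%) and 14.8%, and the AP-1 motif (TGACTCA) in 4 of 83 (4.82%) and 8.13%. The 95% interval of the difference in percentage points was −2.16 to 5.54 for SoxOct, −1.79 to 9.75 for the octamer, −6.37 to 8.76 for the Sox motif and −6.24 to 3.62 for AP-1.

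The highest Hox summit of Oct4 S151M lay at chr15:102989068-102989068, inside the long annotated intron of Hoxc5 and 1539 bp from the nearest annotated start, with a score of 285 and a fold enrichment of 51.0 over the local background, above 97.5% of the library. The next was 1943 bp inside Hoxc4, at chr15:103020877-103020877, with a score of 255 and a fold enrichment of 39.7. Neither held a POU motif by the rule used. The closest MORE alignments had 2 mismatches in the Hoxc5 site and 3 in the Hoxc4 site, and the Hoxc4 sequence ends in a run of alternating t and a.

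The other sites printed for this library held MORE+1. They lay in an exon of the non-coding transcript Haglr beside Hoxd3 (score 194, fold enrichment 32.3, match 17 bp from the centre) and 6019 bp from Hoxb1, a gene of the hindbrain (score 106, fold enrichment 24.3, match 5 bp from the centre). The latter was the top site of the Hoxb cluster. The top site of Hoxa by rank was in Hoxa5, a gene of the thorax and lung, in sequence annotated as UTR 228 bp from the start. Oct4 S151M had a score of 102 there and Oct4defSox2 at day 1 had 11.3. No other library had a summit at the Hoxc5, first Hoxc4, Haglr or Hoxb1 site.

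In Oct4defSox2 at day 1, the highest of the 12 Hox summits was in the UTR of Hoxa10, 136 bp from its start, with a score of 30.7 (above 89.1% of the library) and the octamer printed above, centred 11.5 bp from the summit. Hoxa10 patterns the uterus and the lumbar spine. In Oct6 M151S the highest was in the coding exon of Hoxd9, with a score of 8.83 (above 98.4%), a fold enrichment of 3.70 and no POU motif, and it was the top site of the Hoxd cluster by rank. In Sox2 from Oct4defSox2-SK at day 5 the highest was the Hoxc4 intron site printed above (25.8, above 91.1%), which held a Sox motif 5 bp from its centre, and Oct4defSox2 at day 1 had a summit of 4.99 there. The highest of Sox2 in Oct6-SK at day 5 was in the Hoxa3 body (above 50.7%), and the only one of Sox2 in Oct4defSox2-SK at day 1 was 9978 bp from Hoxb9 (above 45.1%).

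In the 4 libraries with 12 or more Hox summits, these ranked near the middle of the list. The median Hox summit ranked above 42.5% of the summits of Oct4 S151M, 50.6% of Oct4defSox2 at day 1, 49.9% of Oct6 M151S and 59.9% of Sox2 in Oct4defSox2-SK at day 5. In the shorter sets it was 24.0% for the 3 Hox summits of Oct4 at day 5 and 18.4% for the 4 of Sox2 in Oct4-SK at day 1, and the single one of Sox2 in Oct4-SK at day 5 ranked above 78.8%. The fold enrichment of Oct4 S151M Hox summits ran from 2.82 to 51.0 with a median of 6.17, against a median of 7.32 for all its summits, and for Oct6 M151S it ran from 1.99 to 3.70 with a median of 2.48 against 2.42. At a q-value under 0.05, all 42 of the former passed, as did 100% of all Oct4 S151M summits. Of the 16 of the latter 4 passed, where 21.2% of all Oct6 M151S summits did.

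**Figure D5:**
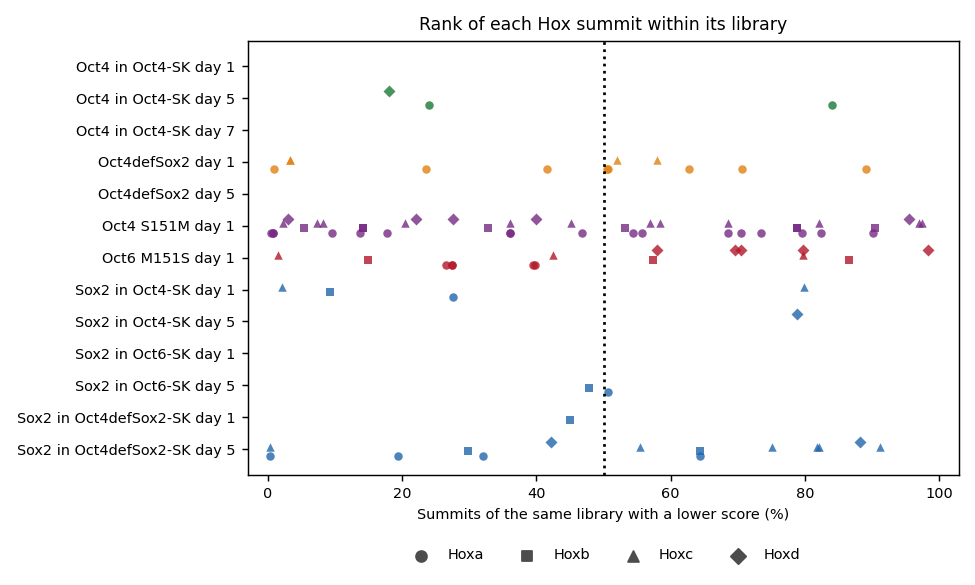
Each point is a Hox summit, placed by the percent of summits of its own library with a lower score, with the cluster given by the marker and the dotted line at the library's median. Points spread over the whole range in Oct4 S151M, and the Hoxd points of Oct6 M151S lie to the right of the line while its Hoxa points lie to the left.

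The genes that work with or upstream of the Hox genes were counted by the same window. Of 9 genes for the Pbx, Meis and Pknox proteins, which bind DNA together with Hox proteins, 4 had a summit of Oct4 at day 1 (beside 15.6% of coding genes), 5 at day 5 (beside 12.6%) and 5 at day 7 (beside 9.39%), and 8 had one of Oct4 S151M (beside 67.2%). Meis1, Pbx3 and Pknox2 had an Oct4 summit at all 3 days, where the Hox genes had 0, 3 and 0 genes. Their median body of 139169 bp is far longer than that of a Hox gene, so these counts are not on the same footing. Of 17 regulators of Hox genes (the Cdx factors, the retinoic acid receptors, Kmt2a and Polycomb subunits), 2 had a summit of Oct4 at day 1 (11.8%, beside 15.6% of coding genes) and 5 at day 5 (29.4%, beside 12.6%). The count was 11 for Oct4defSox2 at day 1 (64.7%, beside 37%) and 15 for Oct4 S151M (88.2%, beside 67.2%). It was 13 for Oct6 M151S (76.5%, beside 42.8%) and 10 for Sox2 in Oct4defSox2-SK at day 5 (58.8%, beside 38.9%). Of the 12 Dlx and Irx genes, 0 had a summit of Oct4 at day 1 (beside 15.6% of coding genes). There were 2 with a summit of Oct4defSox2 at day 1 (16.7%, beside 37%) and 7 with one of Oct4 S151M (58.3%, beside 67.2%). Of the homeobox neighbours of the clusters, Evx2 had a summit of Oct4 S151M (beside 67.2% of coding genes) and of Sox2 in Oct4-SK at day 5 (beside 14.9%). Evx1 had one of Oct6 M151S (beside 42.8%).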

How the data were processed

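The authors aligned reads to mm10 with Bowtie2 2.2.5 and called peaks with MACS2, library by library, and 13 summit lists were used. The score of a summit, as deposited, is its −log10 p-value, which depends on depth and served for ranks inside each list. Peak tables deposited for Oct4 S151M and Oct6 M151S add the fold enrichment (a ratio) and the −log10 q-value. Read depth was not used here, and neither were the 3 inputs. Shares and densities leave out 154 of 227116 summits, which were not on chromosomes 1 to 19, X or Y.

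The 38 genes, the other gene lists and the comparisons were chosen with earlier results of these data known. The contrasts of clusters, of ground near starts, with flanks and with Dlx and Irx windows were added after the values had been seen. Gene bodies and starts came from the GENCODE M21 basic annotation, and sequences from GRCm38 as held by RefSeq. Sites named in the text were those with summits in 3 or more libraries, the highest of each library and of each cluster by rank, those with SoxOct or MORE in 2 or more libraries, and genes without a summit. Further sites that are named (the Hoxc4 and Haglr sites of Oct4 S151M and the Hoxc5 site of Sox2) were chosen after their values had been seen. SoxOct was matched with up to 2 mismatches, MORE and MORE+1 with up to 1 and the octamer with 0.

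Shares have Wilson and differences Newcombe 95% intervals, and density ratios exact conditional ones. With 1 library per group there were no replicates, and no p-value was computed. The alternatives were a score of at least 10, 1 summit per peak, windows of 0 or 50 kb, equal numbers of the strongest summits, merging at 50 or 250 bp, other motif and start distances, and Oct6 M151S scores of at least 4. Calculations used Python 3.11.15, numpy 2.4.6, pandas 2.3.3 and scipy 1.17.1, with figures from matplotlib 3.10.9, and the functions were tested on simulated data.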

Additional observations from a re-analysis of the deposited data

How the results depend on the processing

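Of 105 values recomputed under an alternative, 70 kept their direction and their side of the threshold, 13 were counts that stayed within 1.5 times, 5 were the difference between Oct4 days 1 and 7, 0 throughout, and 4 fell to a difference of 0. With equal numbers of strongest summits the last were the differences in Hox share between days 1 and 5 of Oct4defSox2, between days 1 and 5 of Sox2 in Oct4-SK, and for Sox2 at day 1 between Oct4-SK and Oct4defSox2-SK. At a score of at least 10 it was that between days 1 and 5 of Sox2 in Oct6-SK. With 50 kb windows, Oct4 S151M exceeded Oct4 at day 1 in Hox share by 0.0593 points, with an interval that excluded 0. The difference between Oct4 S151M and Oct6 M151S was −0.0381 points with gene bodies alone, past counting error. At a score of at least 10, few Oct6 M151S summits of any kind were left, and 0 of them were Hox summits. The difference there was 0.0355 points, with a wide interval that included 0 (−1.93 to 0.0510), so no conclusion is drawn from its change of sign. Between days 1 and 5 of Sox2 in Oct4-SK cells it turned to −0.0186 points at that score and −0.00167 points with 50 kb windows, and between Oct4-SK and Oct6-SK at day 5 it turned to 0.0408 points at that score. Gene bodies alone left 23 Hox genes with a summit. A score of at least 10 left 43 merged sites, 4 of them in 2 or more libraries. The MORE difference was −2.11 points with no mismatch and −4.53 points with 50 kb windows, and no longer excluded 0. The SoxOct difference turned to 1.04 points at a score of at least 10 and 0.303 points with gene bodies alone. Except where fewer summits or genes were counted by construction, the cause was not tested. No paired analysis was possible because each group was a single library. Read depth was not used here. The lists of 8199 summits or fewer held 3 or fewer in the Hox windows, so shares there could not be told apart.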
